A study of Mus musculus with 6 samples.

Results

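The serpins are a superfamily of proteins, most of which inhibit proteases. The members on the array were all genes whose name is Serpin followed by a clade letter from a to i and a number. They numbered 61 of the 31553 gene names on the array and were read by 78 probes, with 17 genes carrying more than 1 probe. Each gene was read from the probe with the highest mean log2 intensity over the 6 arrays. By clade letter, 24 genes belonged to clade A, 27 to clade B and 10 to clades C to I, and 11 of the clade A genes were Serpina3 genes. Hearts (tissue label Cardiac muscle) came from male C57BL/6 mice, 3 sham mice and 3 mice after 28 days of tail-suspension, which lifts the hindlimbs by the tail to simulate microgravity. The labels name no genetic change or drug in either group, state that suspension began at 10 weeks and list an age of 11 weeks, whereas the study's methods give 2 months. Each heart gave total RNA for 1 Agilent array with 1 dye. All 8 cardiomyocyte markers looked for were well above background on all 6 arrays.

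A serpin that inhibits a protease presents a loop as bait, is cut by the protease and then traps it in a covalent complex, so that both proteins are used up. Clade A holds secreted plasma proteins such as alpha-1-antitrypsin and antichymotrypsin, clade B holds proteins that stay inside cells, and the other clades include inhibitors of thrombin and complement proteases. A few members inhibit nothing, among them Serpinh1, the collagen chaperone of the endoplasmic reticulum also called Hsp47, and Serpina6 and Serpina7, which carry hormones in blood. The human genome has a single SERPINA3 gene, whereas the mouse carries a run of Serpina3 genes, of which Serpina3n is known as an acute phase gene.

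The sequences below identify the probes behind the calls, because serpins of 1 clade can be alike enough to share signal. The first 30 bases of the 60-base probe are given for 6 genes past the test threshold, 5′ to 3′, with probe positions on mm9 of chr12:105651918-105651977 (plus strand) for Serpina3n, chr12:105480045-105480104 (plus) for Serpina3g, chr12:105385352-105385411 (minus) for Serpina3c, chr2:84605663-84605722 (minus) for Serping1, chr7:106493971-106494030 (minus) for Serpinh1 and chr12:105234830-105234889 (minus) for Serpina9. No gene annotation on mm9 was used here, so the exon or untranslated region under each probe is not stated.
Serpina3n probe: ttggcatgcctggattagatagtgactaac
Serpina3g probe: tgtctcttgttgaccaactacgtaggactg
Serpina3c probe: gactctgagatggaccctatatgtggatct
Serping1 probe: tgggtaaacattgtcacccaagcttcagct
Serpinh1 probe: ggggaggggaaatatgagcctttgttgctt
Serpina9 probe: ctcagtacctttgcttttatggctggctcc

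Of these, none resembled a probe of another serpin gene at 38 or more bases. Probes of other members did, and 3 such pairs are shown as aligned stretches of 30 bases, with the bases that differ between both members of a pair in capitals. The Serpina3h probe and the second, untested Serpina3i probe matched at 51 of 57 aligned bases, the Serpina1a and Serpina1c probes at 50 of 51, and the Serpinb6a probe and the second Serpinb6c probe at 55 of 59.
Serpina3h probe: cacaggGgtcaaaTtAaTtctaTgttgtgA
Serpina3i second probe: cacaggAgtcaaaGtTaAtctaCgttgtgG
Serpina1a probe: taaAatgtcatccttccttctgaattgggt
Serpina1c probe: taaGatgtcatccttccttctgaattgggt
Serpinb6a probe: tgcaatgGcaATtatgaaataaagggcttT
Serpinb6c second probe: tgcaatgAcaGCtatgaaataaagggcttA
The Serpina1e probe matched the Serpina1c probe at 49 of 59 bases, and the brighter Serpina3f probe matched a Serpina3a probe at 43 of 57. Values of such genes may include signal of their relatives, and the share of it is unknown. Probes were compared only with other serpin probes and not with transcripts. Whether a probe, those of the called genes included, reads the transcript of a relative was therefore not tested.

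Serpin genes were measured in part. A signal well above background was found on at least 1 array for 33 of the 61 genes and on all 6 arrays for 25, while 28 genes had none on any array. A gene was tested if all 3 sham arrays or all 3 tail-suspension arrays showed such a signal, which left 28 genes, and 5 further genes had a signal on some arrays only. Passing this filter through 1 group favours genes that differ, so counts over the 28 are not counts over the family. The clades differed in how many members were measured. Of the clade B genes, 17 of 27 had no signal well above background on any array, among them Serpinb5, Serpinb7, Serpinb11, Serpinb13 and the genes Serpinb9b to Serpinb9g, against 8 of 24 in clade A and 3 of 10 in clades C to I, namely Serpinc1 (antithrombin), Serpinf2 (alpha-2-antiplasmin) and Serpini2.

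In tail-suspended hearts 6 serpin genes rose and 2 fell relative to sham, and 20 did not pass, at a threshold of 0.05 for the p adjusted by Benjamini-Hochberg over 28032 probes (limma). Serpina3n, Serpina3g, Serpina3c, Serpina3i, Serpina3f and Serping1 rose, and Serpinh1 and Serpina9 fell. The 8 genes made up 28.6% of those tested, against 20.9% of all 18208 genes tested. The 6 that rose made up 21.4%, against 10.7% of all genes, and the 2 that fell compare with 10.2% of all genes. The median log2 fold change was 0.19 over the 28 genes and -0.0094 over all genes. The groups did not overlap for 13 of the 28 genes, against 46.2% of all genes. Without the Serpina3 genes, 21 genes were tested, 1 rose and 2 fell, and the median was 0.07. The Serpina3 genes held 5 of the 6 rises. Of the 25 genes with a signal on all 6 arrays, where neither group alone let a gene pass the filter, 4 rose (16%, against 10.3% of all such genes) and 2 fell.

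**Figure D1:**
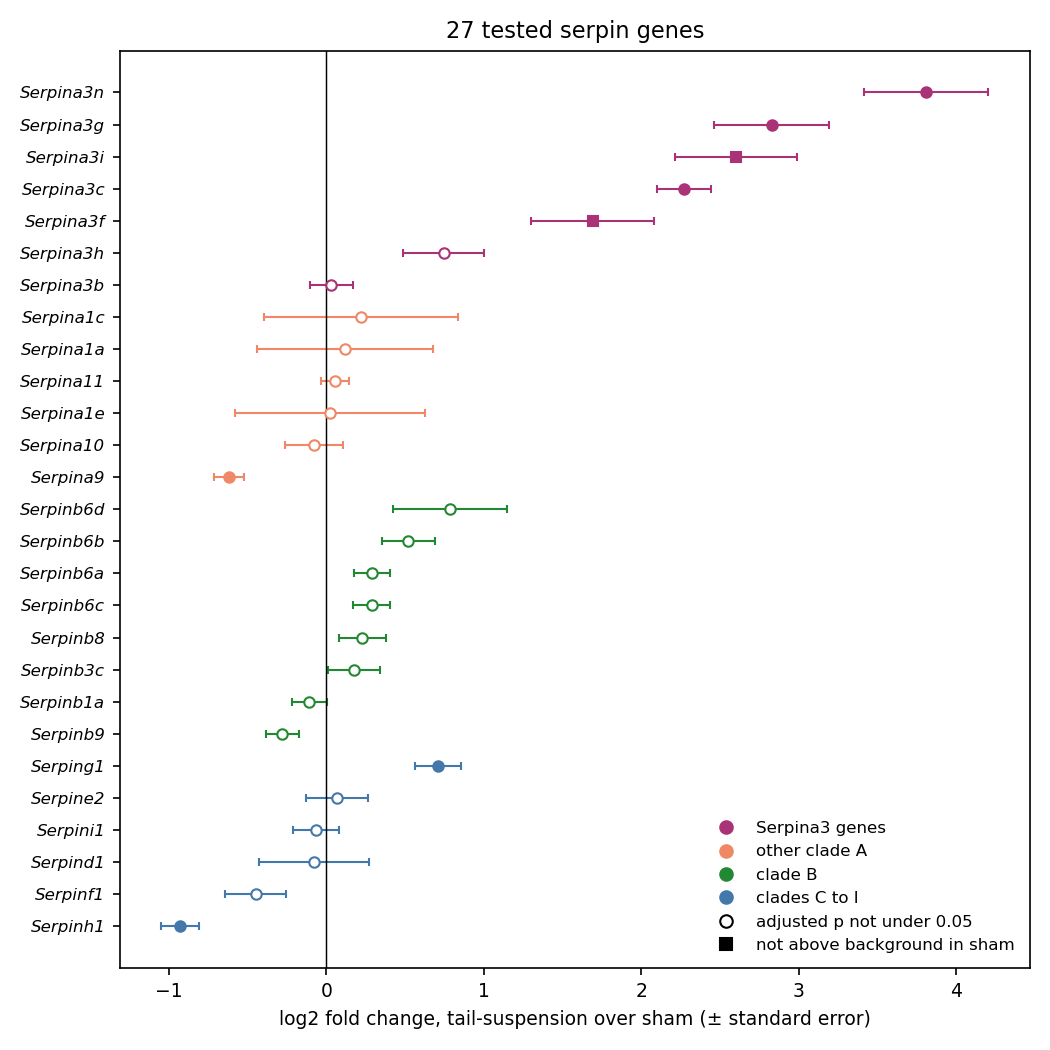
Log2 fold change of tail-suspension over sham with its standard error (x axis) for 27 of the 28 tested serpin genes (y axis), coloured by clade, filled where the adjusted p was under 0.05. Squares mark Serpina3f and Serpina3i, fitted against sham arrays not above background and known only as bounds. The 3 other filled Serpina3 genes lie between 2.27 and 3.81, and the genes that are neither lie between -0.93 and 0.78.

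Serpina3 genes carried the largest differences of the family. Of the 11 Serpina3 genes, 8 had a signal on at least 1 array, 7 were tested and 5 rose. Since 2 of the 5, Serpina3f and Serpina3i, passed the filter only through the tail-suspension arrays, where they were high, that share is partly set by the filter. Of the 5 genes with a signal on all 6 arrays 3 rose (Serpina3n, Serpina3g and Serpina3c), beside 10.3% of all such genes, and Serpina3b and Serpina3h did not pass. Levels are the log2 processed intensity minus the 75th percentile of the array. Serpina3n, a secreted inhibitor of chymotrypsin-like proteases such as cathepsin G and granzyme B, read -2.46, -2.27 and -2.06 in sham hearts and 2.07, 0.57 and 1.99 after tail-suspension. All tail-suspension arrays lay above all sham arrays, and tail-suspension replicate 2 was the lowest of them. The difference was 3.81 on the log2 scale (SE 0.40, adjusted p = 0.00332), a 14.0-fold rise, which was the rise of rank 10 among 18028 genes with a signal well above background in both groups.

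Serpina3g, an intracellular member also called Spi2A that inhibits cathepsins, read -2.79, -3.50 and -2.28 in sham hearts and 0.55, -0.39 and -0.24 after tail-suspension. The groups did not overlap, and the difference of 2.83 (SE 0.36, adjusted p = 0.00608) was a 7.10-fold rise, of rank 32. Serpina3c, a secreted inhibitor of kallikrein-like proteases, read -4.13, -4.26 and -4.18 in sham hearts and -1.58, -2.27 and -1.91 after tail-suspension. Its sham arrays lay close together and near the lowest signals well above background, the groups did not overlap, and the difference was 2.27 (SE 0.17, adjusted p = 0.00212, 4.82-fold, rank 57).

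Serpina3i and Serpina3f had no signal well above background in sham hearts, and their rises are known as bounds. For the bound, each sham array was given the lowest signal well above background on it, or the signal of the probe where that was higher, and the mean was set against that of the tail-suspension arrays. An adjusted p beside a bound, here and below, is from the limma fit to the signals as read. It does not test the bound. Serpina3i read -5.30, -6.12 and -5.55 in sham hearts and -2.34, -3.82 and -3.01 after tail-suspension and was at least 2.50-fold higher (adjusted p = 0.00896). Serpina3f read -4.44, -5.82 and -4.69 in sham hearts and -2.86, -3.26 and -3.74 after tail-suspension and was at least 2.11-fold higher (adjusted p = 0.0300). Its second probe, 33.6 kb away on mm9, was likewise above background only in tail-suspended hearts and so adds no independent support. The brighter probe lies 0.823 kb from the Serpina3h probe and beyond the Serpina3g probe. By contrast, the RefSeq start of Serpina3f and its second probe lie before those of Serpina3g. The brighter probe may thus read another Serpina3 gene, which was not tested. It is counted as Serpina3f by its name on the array. In Serpina3i and Serpina3f all tail-suspension arrays lay above all sham arrays. The Serpina3f call did not hold with any single array left out except sham replicate 1 (adjusted p = 0.0525 without sham replicate 2, 0.0547 without sham replicate 3, 0.0805, 0.0576 and 0.0524 without tail-suspension replicates 1, 2 and 3).

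The remaining Serpina3 genes did not pass or were not tested. Serpina3h read -3.96, -4.09 and -3.47 in sham hearts and -2.82, -3.61 and -2.86 after tail-suspension, a difference of 0.75 (SE 0.26, adjusted p = 0.0830) with overlapping groups. It passed without tail-suspension replicate 2 (1.00, adjusted p = 0.0235) and with array weights (adjusted p = 0.0144). Serpina3b was level, with a difference of 0.03 (SE 0.14). Serpina3m was not tested in the main fit. Only 2 of its 3 tail-suspension arrays and none of its sham arrays had a signal well above background. It was at least 2.80-fold higher over the 3 tail-suspension arrays, or 4.49-fold without replicate 2, the array with no such signal. Serpina3a, Serpina3j and Serpina3k had no signal well above background on any array.

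**Figure D2:**
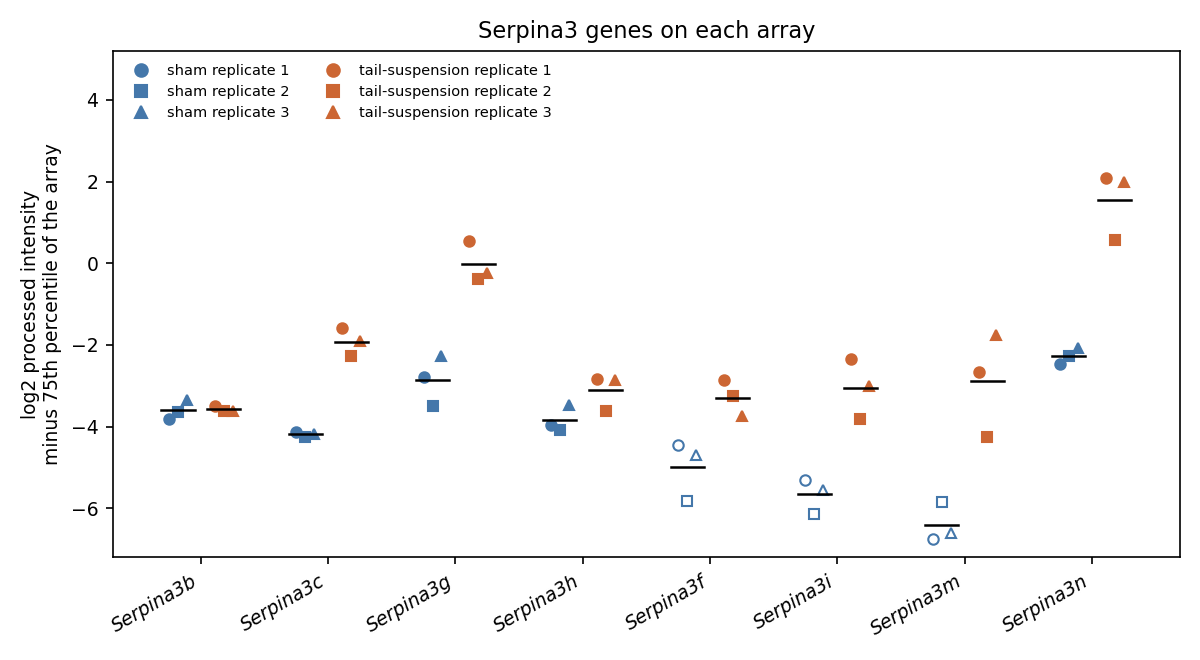
Log2 processed intensity minus the 75th percentile of the array (y axis) of 8 Serpina3 genes (x axis) on each array, sham in blue and tail-suspension in orange, with the mean of each group as a line and hollow points where no array of the group was well above background. In Serpina3n the sham arrays lie between -2.46 and -2.06 and the tail-suspension arrays between 0.57 and 2.07, while the groups overlap in Serpina3b and Serpina3h.

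In Serpina3c, Serpina3g, Serpina3h, Serpina3i and Serpina3n, tail-suspension replicate 2 was the lowest and replicate 1 the highest of the tail-suspension arrays. Replicate 2 was also the lowest for the neutrophil genes S100a8, S100a9, Camp and Ltf and for the liver genes Ttr and Ahsg, but not for the neutrophil markers Elane and Csf3r, nor for Serpina3b and Serpina3f, whose lowest array was replicate 3. Of the 7 neutrophil markers looked for, 6 were tested and 3 rose (50%, against 10.7% of all genes). Of these, Ltf was not above background in sham hearts and passed the filter only through the tail-suspension arrays. Of the 5 with a signal on all 6 arrays 2 rose (40%, against 10.3% of all such genes). S100a8 read -2.54, -2.88 and -3.38 in sham hearts and 3.31, 0.55 and 1.75 after tail-suspension. The difference was 4.80 (adjusted p = 0.00705). The summed level of the list ran from 7.17 to 7.43 on the sham arrays and from 7.70 to 7.88 on the tail-suspension arrays, a sum of which the Csf3r probe alone made up 78.4% to 99%, and its protease gene Elane did not pass (-0.30, adjusted p = 0.0674). Of 8 hepatocyte markers, Ttr, not well above background on 1 sham array, and Ahsg rose by 2.64 and 2.99. The defining markers Alb, Apoa1, Fgb, Fgg and Apoh were well above background on no array. Of the 3 hepatocyte markers tested 2 rose (66.7%, against 10.7% of all genes). Of the 2 with a signal on all 6 arrays 1 rose (50%, against 10.3% of all such genes). The part of these cell types in the rise of the Serpina3 genes was not tested. In these whole-tissue samples, more cells of a type and more RNA per cell cannot be told apart.

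All 6 arrays lay on 1 slide, where row 1 held the 3 sham arrays and tail-suspension replicate 1, and row 2 held tail-suspension replicates 2 and 3. Once the row entered the fit as a block, which sets replicate 1 alone, the highest of its group for these genes, against the sham arrays, Serpina3n (4.34, adjusted p = 0.0315), Serpina3i (adjusted p = 0.0338), Serpina3g (3.41, adjusted p = 0.0350) and Serpina3c (2.60, adjusted p = 0.0134) stayed past the threshold, and no other serpin did. Normexp background correction with an offset of 50, which shrinks differences of dim probes, left Serpina3c at 0.74 (adjusted p = 0.00696) and Serpina3g at 1.78, both past the threshold, and Serpina3f (adjusted p = 0.401) and Serpina3i (adjusted p = 0.114) not past it.

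The Serpina3 genes lie next to each other on chromosome 12. Of the 23 Serpina genes whose probes fell there, spread over 797 kb on mm9 (chr12:104854887-105651977), the last 11 in order were the Serpina3 genes, within 297 kb. Of the 12 Serpina genes before them, 6 were tested, Serpina9 fell, and 5 did not pass. The 5 called Serpina3 genes were not all neighbours, since Serpina3h lies among them and Serpina3n stands last, after Serpina3j, Serpina3k and Serpina3m. This is the order of the probes used, in which Serpina3f follows Serpina3h, although the second Serpina3f probe lies before the Serpina3g probe.

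**Figure D3:**
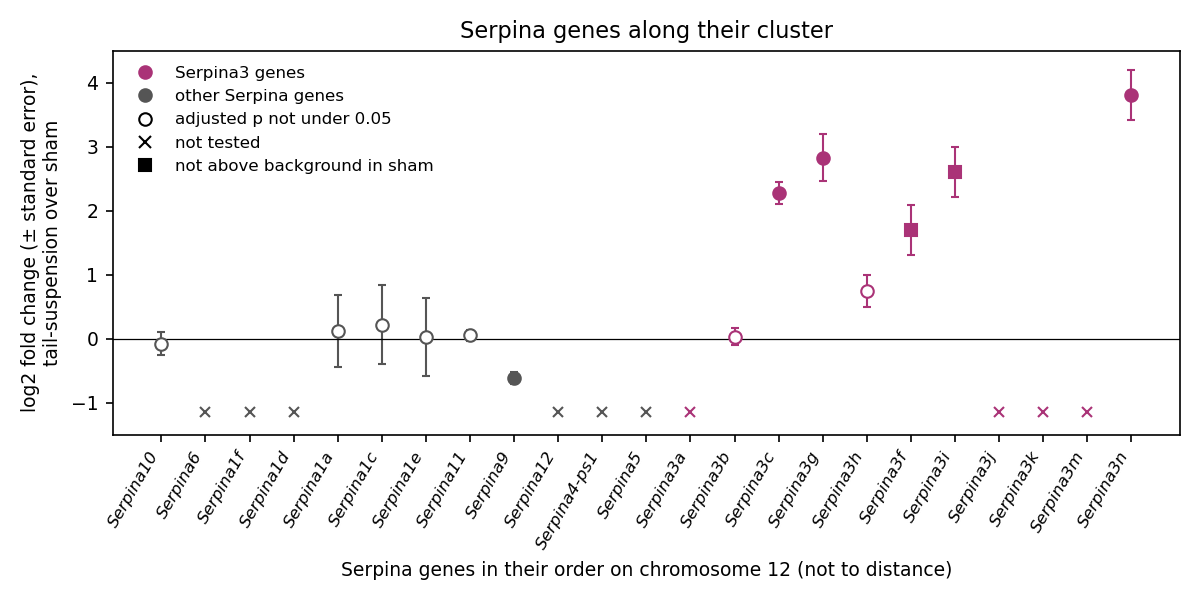
Log2 fold change of tail-suspension over sham with its standard error (y axis) for the 23 Serpina genes of chromosome 12. Genes stand in the order of the probes used (x axis, evenly spaced). Points are filled where the adjusted p was under 0.05 and crossed below the axis where not tested. Serpina3f stands at its brighter probe, whereas its second probe lies before the Serpina3g probe. Squares mark Serpina3f and Serpina3i, not above background in sham hearts. The rises begin at Serpina3c with 2.27 and end at Serpina3n with 3.81, and Serpina9 is the only filled point below 0.

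The bases before the starts of Serpina3 genes are shown because several of these genes rose together. RefSeq (GRCm38.p6) gave promoter sequences for 49 of the 61 genes, 58 sequences in all, and the 250 bases before the start were read 5′ to 3′ on the strand of the gene. Windows were aligned in pairs without gaps. Those of Serpina3n (chr12:104406458-104406707, plus strand) and Serpina3c (chr12:104153873-104154122, minus strand) were alike at 229 of 247 aligned bases (92.7%). Other pairs of Serpina3 promoters matched at 64.8% or less by this measure. It misses stretches shared at shifted positions, as in the Serpina3g and Serpina3i windows below, so other pairs may be more alike than it shows. Motifs chosen with the results known were searched as short letter patterns, after longer patterns for 3 of them (glucocorticoid, NF-kB and heat shock) that gave other matches and are not reported here, on both strands except for the TATA box on the strand of the gene, and are in capitals. They were TTCNNNGAA for a STAT site, ACANNNTGT for the core of a glucocorticoid response element, GGAAANNCC for an NF-kB site, TTGCNNNAA for a C/EBP site, GAANNTTC for a heat shock element, GGGCGG for an Sp1 box and TATAAA for a TATA box. No match overlaps another in the windows shown.
Serpina3n promoter: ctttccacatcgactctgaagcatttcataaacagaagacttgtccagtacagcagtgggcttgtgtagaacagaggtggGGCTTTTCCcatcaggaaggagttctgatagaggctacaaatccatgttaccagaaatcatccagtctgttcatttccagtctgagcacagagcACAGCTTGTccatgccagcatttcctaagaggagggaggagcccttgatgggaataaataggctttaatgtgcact
Serpina3c promoter: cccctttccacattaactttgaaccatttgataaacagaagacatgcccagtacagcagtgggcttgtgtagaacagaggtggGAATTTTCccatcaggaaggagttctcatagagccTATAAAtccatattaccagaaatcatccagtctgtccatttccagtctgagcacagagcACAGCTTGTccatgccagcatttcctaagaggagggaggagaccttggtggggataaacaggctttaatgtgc
Serpina3g promoter: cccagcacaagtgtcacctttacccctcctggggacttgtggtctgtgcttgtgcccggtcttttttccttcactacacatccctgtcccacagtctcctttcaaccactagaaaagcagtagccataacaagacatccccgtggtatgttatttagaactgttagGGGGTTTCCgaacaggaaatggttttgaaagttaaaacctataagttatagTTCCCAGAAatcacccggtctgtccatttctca
Serpina3i promoter: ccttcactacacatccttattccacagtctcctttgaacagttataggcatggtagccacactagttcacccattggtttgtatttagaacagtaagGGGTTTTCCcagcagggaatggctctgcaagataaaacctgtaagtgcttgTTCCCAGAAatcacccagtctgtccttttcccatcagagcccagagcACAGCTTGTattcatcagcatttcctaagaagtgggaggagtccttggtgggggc
The capitals mark NF-kB and then glucocorticoid letters in Serpina3n, heat shock, TATA and glucocorticoid letters in Serpina3c, NF-kB and STAT letters in Serpina3g, and NF-kB, STAT and glucocorticoid letters in Serpina3i. The glucocorticoid core stood 76 bases before the start in Serpina3n, 73 in Serpina3c and 55 in Serpina3i and also before Serpina3f, and in genes that did not pass (Serpina1a, Serpinb8) or had no signal (Serpinb12, Serpinb9d, Serpini2), in all in 17.2% of the serpin promoters and 5.84% of all 32851 promoters. STAT letters stood 33 bases before the start in Serpina3g, 102 in Serpina3i and also before Serpina3f, and before Serpina11, Serpina1f, Serpinb2, Serpinb6a and Serpinb9c, of which none was called, likewise in 17.2% of the serpin promoters, and in 7.02% of all promoters. NF-kB letters occurred in 8.62% of the serpin promoters and 4.93% of all promoters. The windows of Serpina3b, which did not pass, and Serpina3a, without a signal on any array, held only TATA letters of the 7 patterns, and that of Serpina3j held none. Which genes hold the letters depends on how long a pattern is searched. A match of letters is a description of the sequence and was not linked to binding here.

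The other clade A genes showed a different picture. Serpina9, a member known from germinal centre B cells, read -0.77, -0.57 and -0.80 in sham hearts and -1.32, -1.33 and -1.36 after tail-suspension. The groups did not overlap, and the level fell by 0.62 (SE 0.095, adjusted p = 0.0098, 1.54-fold lower), a call that held in every alternative fit but that with the slide row as a block (adjusted p = 0.111), and is under the 2-fold minimum. Serpina10, the cofactor-dependent inhibitor of factor X, and Serpina11 did not pass, with differences of -0.08 and 0.05.

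Serpina1 genes, which encode alpha-1-antitrypsin, the main plasma inhibitor of neutrophil elastase, did not pass either. Serpina1a read -1.64, -2.75 and -2.96 in sham hearts and -2.67, -3.14 and -1.19 after tail-suspension. Serpina1c read -1.74, -2.89 and -3.19, and then -2.73, -3.31 and -1.13. Serpina1e read -1.61, -2.62 and -3.15, and then -2.77, -3.33 and -1.23. Sham replicate 1 and tail-suspension replicate 3 were high together in all 3 genes, whose probes are alike, and the differences of 0.12, 0.22 and 0.02 had standard errors of 0.56 to 0.61. The second Serpina1e probe gave the opposite sign (-0.11, adjusted p = 0.832).

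Clade B genes inhibit proteases inside cells, such as granzyme B or lysosomal cathepsins. Of the 27 genes, 8 were tested and none passed by limma, while 4 had an unadjusted p under 0.05. These were Serpinb6a, Serpinb6b and Serpinb6c, which were higher, and Serpinb9, which was lower. The share of all genes with such a p was not counted, so the 4 are a description only. The 4 Serpinb6 genes tested were all higher in the mean, and the groups did not overlap in 3 of them, against 46.2% of all genes, though the Serpinb6a and Serpinb6c probes are alike and not separate readings. Serpinb6a, an inhibitor of cathepsin G and trypsin-like proteases, read 5.36, 5.35 and 5.18 in sham hearts and 5.49, 5.49 and 5.78 after tail-suspension, a difference of 0.29 (SE 0.12, adjusted p = 0.118). Serpinb6c differed by 0.29 (adjusted p = 0.124) and by 0.26 on its second probe, both probes being alike to that of Serpinb6a. Serpinb6b differed by 0.52 (SE 0.17, adjusted p = 0.0694), which passed with an intensity trend (adjusted p = 0.0394) and with normexp (adjusted p = 0.0221), and Serpinb6d by 0.78 (SE 0.36, adjusted p = 0.162) with overlapping groups.

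Serpinb9, the inhibitor of granzyme B that protects cytotoxic cells from their own enzyme, read 0.01, -0.23 and -0.21 in sham hearts and -0.45, -0.32 and -0.49 after tail-suspension. The groups did not overlap, with a difference of -0.28 (SE 0.10, adjusted p = 0.0967). Serpinb1a, the inhibitor of neutrophil elastase, read 0.43, 0.45 and 0.55, and then 0.50, 0.17 and 0.43, with a difference of -0.11 (adjusted p = 0.508). Serpinb8 and Serpinb3c differed by 0.23 and 0.18 and did not pass, although Serpinb3c did without sham replicate 3 (0.37, adjusted p = 0.0477).

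Among clades C to I, Serpinh1 fell and Serping1 rose. Serpinh1 read 4.06, 4.20 and 3.80 in sham hearts and 3.12, 3.11 and 3.04 after tail-suspension. The groups did not overlap, the tail-suspension arrays lay closest together, and the level fell by 0.93 (SE 0.12, adjusted p = 0.00601, 1.91-fold lower). This was the fall of rank 399 among the same 18028 genes. With the slide row as a block the fall was 0.90, with an adjusted p of 0.0807.

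The 12 procollagens and collagen-modifying enzymes looked for beside Serpinh1 were all tested, and 4 fell and none rose, which is 33.3% against 20.9% of all genes, with a median of -0.57. Col3a1, the fibrillar collagen III chain, fell by 1.88 (SE 0.36, adjusted p = 0.0177), Col4a1 by 0.85 (adjusted p = 0.0125) and Col4a2 by 0.51 (adjusted p = 0.0228), the last 2 being basement membrane chains. Col3a1 read 3.55, 3.91 and 4.55 in sham hearts and 1.96, 1.63 and 2.78 after tail-suspension. Groups of 9 of the 12 genes did not overlap, all lower, against 46.2% of all genes in either direction. The folding enzyme P4hb (0.36, adjusted p = 0.125) and the lysyl hydroxylase Plod2 (0.01) did not pass.

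The promoter of Serpinh1 is printed from RefSeq (chr7:99353240-99353489, minus strand, GRCm38.p6), since its fall stands apart from the rises of the Serpina3 genes. Its capitals mark an Sp1 box, 37 bases before the start, and Sp1 letters occur in 32.7% of all promoters.
Serpinh1 promoter: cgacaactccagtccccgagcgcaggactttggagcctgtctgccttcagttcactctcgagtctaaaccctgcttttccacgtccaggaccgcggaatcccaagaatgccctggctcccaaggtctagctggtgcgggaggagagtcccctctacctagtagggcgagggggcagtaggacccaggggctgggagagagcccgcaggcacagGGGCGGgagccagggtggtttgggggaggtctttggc
The letters of a heat shock element were not in this window, and occur in 6.69% of all promoters.

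Serping1, C1 inhibitor, blocks the proteases C1r and C1s and thereby the classical pathway of complement, and also kallikrein. It read 4.90, 4.91 and 5.02 in sham hearts and 5.86, 5.34 and 5.76 after tail-suspension. The groups did not overlap, and the difference was 0.71 (SE 0.15, adjusted p = 0.0228, 1.63-fold higher). Its second probe gave 0.81 (adjusted p = 0.018) and the same order of the tail-suspension arrays. The call was lost without sham replicate 1 (adjusted p = 0.0710), sham replicate 2 (0.0815), tail-suspension replicate 1 (0.0599) or tail-suspension replicate 3 (0.0763), with the row as a block (0.0848), without the filter on dim probes (0.0748) and under the methods' t-test after adjustment (0.0726), with the difference between 0.61 and 0.92 in these fits.

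The complement genes looked for beside Serping1, the proteases C1r, C1s, C2, Masp1 and Masp2 and the 3 C1q chains, were all higher in the mean. All 8 were tested and 4 rose, 1 of them Masp1, which passed the filter only through the tail-suspension arrays. Of the 7 with a signal on all 6 arrays 3 rose (42.9%, against 10.3% of all such genes), with a median of 0.69. Masp1, a lectin pathway protease that was not well above background in sham hearts, was at least 2.68-fold higher (adjusted p = 0.00566). C2, a component of the classical and lectin pathways, was 1.03 higher (adjusted p = 0.0113), and C1s, a target of Serping1, 0.61 (adjusted p = 0.0186). C1qa, part of the recognition subunit of C1, differed by 0.75 (adjusted p = 0.058).

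**Figure D4:**
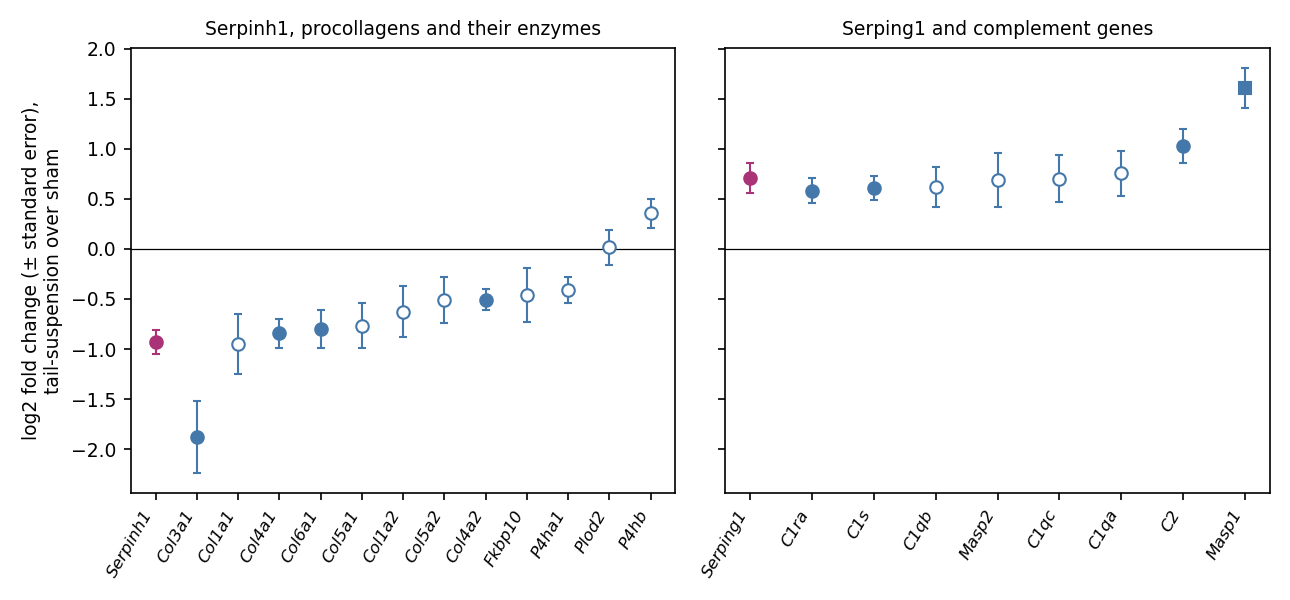
Log2 fold change of tail-suspension over sham with its standard error (y axis) for Serpinh1 beside procollagens and their enzymes (left) and for Serping1 beside complement genes (right), filled where the adjusted p was under 0.05, with a square for Masp1, not above background in sham hearts. Serpinh1 lies at -0.93 and 4 of 12 genes of its list are filled below 0, whereas Serping1 lies at 0.71 and 4 of 8 genes of its list are filled above 0.

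The inhibitors of thrombin tested here did not pass. Serpine2 (protease nexin, an inhibitor of thrombin and urokinase) read -1.22, -0.89 and -0.82 in sham hearts and -0.68, -1.31 and -0.74 after tail-suspension, with a difference of 0.07 (adjusted p = 0.826). Serpind1 (heparin cofactor II) read -4.04, -2.77 and -3.24, and then -3.10, -3.30 and -3.90, with a difference of -0.08 (adjusted p = 0.887).

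Serpinf1, pigment epithelium-derived factor, which inhibits no protease and is known to restrain vessel growth, read 3.26, 3.12 and 3.24 in sham hearts and 2.81, 2.35 and 3.12 after tail-suspension. The arrays just failed to meet at 3.12, and the difference of -0.45 (SE 0.19, adjusted p = 0.137) did not pass, with -0.47 on its second probe. Serpini1, neuroserpin, an inhibitor of tissue plasminogen activator, read 0.53, 0.55 and 0.56, and then 0.77, 0.21 and 0.45, with a difference of -0.07 (adjusted p = 0.761). Its dimmer second probe differed by -0.45 (adjusted p = 0.167), with overlapping groups.

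**Figure D5:**
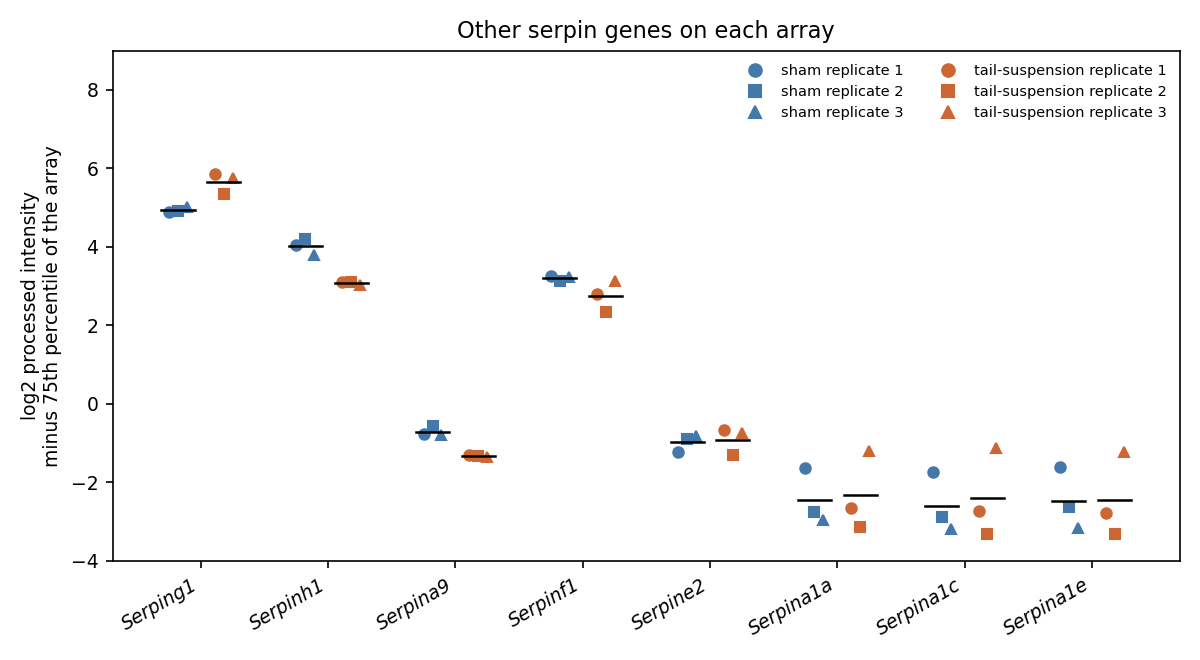
Log2 processed intensity minus the 75th percentile of the array (y axis) of 8 other serpin genes (x axis) on each array, sham in blue and tail-suspension in orange, with the mean of each group as a line. The groups are apart in Serping1, Serpinh1 and Serpina9, the groups overlap in Serpine2, and sham replicate 1 and tail-suspension replicate 3 are high in the Serpina1 genes.

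Proteases, cofactors, receptors and clients of serpins were read from 7 lists of 69 genes on the array, of which 54 were tested, 9 rose and 7 fell (29.6%, against 20.9% of all genes), with a median of -0.08. Besides the complement and procollagen lists, 3 of 11 tested coagulation genes rose (27.3%, against 10.7% of all genes). They were Vwf (0.99, adjusted p = 0.00284), F7 (adjusted p = 0.0252, above background on 1 of 3 sham arrays) and F13a1 (0.95, adjusted p = 0.0462). F7 passed the filter only through the tail-suspension arrays, so that share is partly set by the filter. Of the 10 coagulation genes with a signal on all 6 arrays 2 rose (20%, against 10.3% of all such genes). Of 3 tested genes listed under the plasminogen system, 1 rose (33.3%, against 10.7% of all genes). This was Hgfac, the activator of hepatocyte growth factor, at least 1.94-fold higher (adjusted p = 0.00278). It was well above background on no sham array and passed the filter only through the tail-suspension arrays. Of the 2 listed genes with a signal on all 6 arrays 0 rose. None of the 6 tested proteases of neutrophils, mast cells and lymphocytes passed by limma, and 1 had an unadjusted p under 0.05. Ctsg (cathepsin G) was not tested. It was well above background on 2 tail-suspension arrays and 0 sham arrays and was at least 1.56-fold higher. Also untested were Prtn3 and Gzmb, without a signal well above background on any array, and Cma1, with such a signal on 1 array of each group. Of cathepsins and caspase 1, Ctsl rose by 0.93 (adjusted p = 0.0123) and 4 did not pass, a share of 20% higher against 10.7% of all genes.

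Among 9 tested receptors and cofactors, none rose and 3 fell (33.3%, against 10.2% of all genes), among them Nr3c1, the glucocorticoid receptor (-0.54, adjusted p = 0.0148), and Vtn, the plasma and matrix protein vitronectin (-0.59, adjusted p = 0.0276). Nr3c1 read 4.61, 4.60 and 4.49 in sham hearts and 4.13, 4.05 and 3.90 after tail-suspension, with no overlap. With the slide row as a block, 3 genes of the 7 lists rose and 0 fell, procollagens included, while leaving out sham replicate 2 left 6 rises and 1 fall and leaving out tail-suspension replicate 2 gave 15 rises.

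Markers of other cell types were read as counts. Of the 8 cardiomyocyte markers, Actc1 fell (-0.33, adjusted p = 0.0364) and 7 did not pass (12.5% called, against 20.9% of all genes). None of 6 fibroblast, 5 macrophage, 5 red cell, 2 adipocyte or 1 pancreas acinar markers tested passed by limma, with unadjusted p under 0.05 for 3, 1, 3, 1 and 0 of them. The share of all genes with such an unadjusted p was not counted. The red cell genes Hba-a1, Hbb-b1 and Alas2 differed by -1.50, -1.54 and -1.62 (adjusted p = 0.0506, 0.0536 and 0.0619) without overlap between the groups. Of 6 endothelial markers, Vwf rose and Kdr and Emcn fell (50% called, against 20.9% of all genes). Kit fell among 4 tested mast cell markers (25%), and Krt10 fell among 2 tested markers of salivary gland and keratinocytes (50%). Their part in the serpin results was not tested.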

How the data were processed

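Hearts of 3 sham and 3 tail-suspended mice were each measured on 1 Agilent array with 1 dye. The files deposited by the authors are scanner tables from Agilent Feature Extraction 10.7.1.1, as the submitters' processing notes name it, and give for each spot a background-corrected processed intensity. A second deposited table holds log2 values made by the authors, each correlated at 0.999 with the log2 processed intensity of the matching arrays. Its medians were 4.33 in all 6 columns, and with these correlations the log2 values were not centred by gene.

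The log2 processed intensity minus the 75th percentile of each array was computed in R 4.3.3, leaving out controls and outlier-flagged spots and averaging the spots of a probe. A probe was well above background on an array if at least 50% of its spots carried the flag, which held for 50.9% to 53.4% of 55681 probes. No spot was saturated, and the number of arrays limits the precision. The lmFit and eBayes functions of limma 3.58.1 compared the groups without covariates over 28032 probes, with Benjamini-Hochberg adjustment, for which the smallest two-sided p of an exact permutation test (3 against 3) is 0.1. The series text names 3 mice per group, and p-values measure the spread between them.

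Every serpin with a signal on all arrays of a group was named, those past the threshold with each array, others by heart, plasma or matrix role, and of each partner list the 3 genes with the lowest adjusted p past the threshold. C1qa, P4hb, Plod2, Elane, Ctsg, Prtn3, Gzmb, Cma1 and the marker genes were named beside these after their values were seen. Values of 1 serpin and 1 partner gene, which stay in the counts, are not reported here. Members, lists and motifs were chosen with earlier results of these data known. Gene names are those of the array, probe coordinates are on mm9, and all 61 names matched the RefSeq table of GRCm38.p6, 60 by symbol and 1 by synonym. The steps were tested on simulated data for tail-suspension against sham with 28003 probes. Of 200 probes changed on the log2 scale, 70% of those changed by 1 and 89% of those changed by 2 were called, and 7 unchanged probes were called.

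Alternatives covered the background correction (normexp, offset 50), the scaling (quantile, another percentile, or the authors' table), the filter (none or stricter), outlier spots, the variance model (trend, array weights), the methods' t-test, blocks for replicate number and slide row, a 2-fold minimum, the choice of probe, and each array left out in turn. With an array left out, the 28032 probes were kept rather than filtered again, a choice made after the values under both had been seen.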

Additional observations from a re-analysis of the deposited data

Results flagged for a closer look

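Several serpin probes outside the test had a signal well above background on tail-suspension arrays and on no sham array. Serpina3m reached -1.75 on the log2 scale on 1 tail-suspension array, against at most -5.85 on the sham arrays, and was well above background on 2 tail-suspension arrays. The second Serpina3i probe reached -2.46, against at most -5.48, also on 2 arrays. The second Serpina10 probe reached -1.80 on 1 array, against at most -6.59, while the brighter Serpina10 probe did not pass. Serpinb6e reached -3.99 on 1 array, against at most -4.29. None of these differences was tested in the main fit, since the probes did not pass the filter on dim signals. Serpina3m passed in the fit without that filter.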

How the results depend on the processing

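Of 564 values of 27 single serpin genes under the alternatives, 502 kept their direction and their side of the threshold, 20 lost a call, 6 gained one and 36 changed sign, all of the last in genes that had not passed. Serpina3n, Serpina3g and Serpina3c passed under all alternatives run. Without the filter on dim probes 8 serpins passed, 6 of them shared with the main fit. Serpina3f and Serping1 were lost there, and Serpina3m and Serpinf2 were gained. The serpin count of 6 higher and 2 lower was 3 higher under the adjusted methods' t-test, 0 lower with a 2-fold minimum and 0 lower with the slide row as a block. Counts of all probes, 3023 higher and 2683 lower, were 1041 and 790 without the filter, 1532 and 1248 under the adjusted and 4810 and 4696 under the unadjusted t-test, 757 and 460 with a 2-fold minimum, and 320 and 177 with the slide row as a block. Array weights gave 4355 lower probes. Partner genes, 9 higher and 7 lower, were 1 lower without the filter, 14 and 11 with array weights, 3 and 1 under the adjusted t-test, 11 lower under the unadjusted one, 3 and 1 with a 2-fold minimum, and 3 and 0 with the slide row. Blocking on the replicate number gave 1714 higher and 1403 lower probes, and the serpin counts stayed at 6 and 2. Same-numbered arrays correlated at -0.02, -0.0176 and 0.0495 in their deviations, so they share only a number. With each array left out, probe counts ran from 1008 to 2885 higher and from 749 to 2701 lower, both lowest without sham replicate 2, and partner counts from 5 to 15 higher and from 1 to 7 lower.

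Signs turned under normexp in Serpina1a (-0.054), Serpina1c (-0.023), Serpina1e (-0.11), Serpina3b (-0.19) and Serpinb3c (-0.072), under quantile normalization in Serpina1e (-0.015) and Serpina3b (-0.053), with the authors' values in Serpina1e (-0.0078) and Serpina3b (-0.049), with array weights in Serpini1 (0.014) and over the mean of probes in Serpina1e (-0.042). With the slide row as a block they turned in Serpina11 (-0.022), Serpina1a (-0.21), Serpina1c (-0.12), Serpina1e (-0.31), Serpinb1a (0.026), Serpind1 (0.25) and Serpini1 (0.22). With each array left out, Serpina3b ran from -0.081 to 0.16, Serpine2 from -0.055 to 0.27, Serpina10 from -0.25 to 0.046, Serpina1a from -0.45 to 0.52, Serpina1c from -0.41 to 0.68, Serpina1e from -0.59 to 0.46, Serpind1 from -0.43 to 0.21 and Serpini1 from -0.21 to 0.064. The cause of these shifts was not tested. A block for slide or scan could not be fitted, since the 6 arrays shared 1 slide and 1 scan. For the 28 serpins without a signal well above background on any array, no difference between the groups and no bound on one is known. Serpinf2, 1 of them, passed in the fit without the filter, from values that were not well above background.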
